A study of Homo sapiens with 32 samples.

Results

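The difference between the human lung cancer lines A549 and H460a in their response to 6 h of RO4929097 was taken as the change in A549 (RO4929097 minus vehicle) minus the change in H460a (RO4929097 minus vehicle). It rests on 16 of the 32 arrays of the series, 4 in each of 4 groups: A549 with 2 µM RO4929097 for 6 h, A549 with vehicle for 6 h, H460a with 2 µM RO4929097 for 6 h and H460a with vehicle for 6 h. A549 was derived from a lung adenocarcinoma and NCI-H460 from a lung large cell carcinoma; the samples carry the name H460a where the series text writes H460. Each is 1 established line, so the contrast is of these lines and not of tumour types. All values are log2 intensities after quantile normalization within each line. Of 19775 genes measured, 14496 had a mean vehicle level of 6 or more in both lines at 6 h and are kept apart here; 555 reached 6 in A549 vehicle only, 311 in H460a vehicle only and 4413 in neither. The level of 6 is a fixed mark on the log2 scale and not a detection call.

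RO4929097 inhibits gamma-secretase, the membrane protease that releases the intracellular part of Notch receptors after a ligand has bound. That part enters the nucleus, joins the DNA-binding protein RBPJ and switches on genes such as those of the HES and HEY repressors and NRARP. TGF-beta signals through receptor kinases to SMAD proteins, which induce genes such as PMEPA1 and JUNB; it is well studied in A549, where it drives a change to a mesenchymal state. The unfolded protein response is a separate programme, in which protein load in the endoplasmic reticulum raises chaperones and degradation factors such as HERPUD1 and DNAJB9.

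Some of the 6 h arrays stood apart from the others. The mean deposited intensity was 496, 531, 589 and 583 on A549 RO4929097 arrays 1 to 4, against 468 to 496 on the A549 vehicle arrays; it was 570 to 613 on the H460a and 24 h arrays. All 4 A549 vehicle arrays and RO4929097 arrays 1 and 2 thus lay below every other array of the series, while RO4929097 arrays 3 and 4 lay within the range of the rest. The low set holds the whole A549 vehicle group, so it cannot be left out of the A549 contrast; RO4929097 arrays 3 and 4 were left out instead, which compares low arrays with low arrays. In H460a vehicle array 3 the 3' probe set of the actin control exceeded the 5' one by 2.19 on the log2 scale, against at most 0.42 on every other array of the series. The labels and files give no batch for any array, and the labels do not say that replicates were separate cultures, so p-values here measure the spread among the arrays alone, and that spread may be technical. The main counts, and the values of many but not all single genes, are given with and without A549 RO4929097 arrays 3 and 4 or H460a vehicle array 3. The part of these gaps in the results was otherwise not tested.

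The question addressed was which transcripts responded differently in the 2 lines within hours of inhibitor exposure. In a limma fit over all 32 arrays, 34 of the 19775 genes differed at an adjusted p under 0.05 (0.172%), with 15 above 0 (0.0759%), meaning a more positive response in A549, and 19 below 0 (0.0961%). At an unadjusted p under 0.05 there were 2622 genes (13.3%). The split depended on the scaling: 17 were above and 7 below 0 with the values as deposited, and 13 above and 7 below with each array centred on its median. Among the 14496 genes at 6 or more in both vehicles 31 passed (0.214%), 13 above and 18 below 0. The 3 others were CDH1 and PLD5, which reached 6 in A549 only, and DIO1, which reached 6 in neither line. The median standard error of the difference was 0.12, and the median size among the 34 genes was 0.53.

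In 27 of the 34 genes the change in A549 alone passed the threshold and that in H460a did not, with 14 differences above and 13 below 0. HERPUD1 and DNAJB9 passed in both lines in the same direction, CDH1 passed in H460a only, and for CASTOR1, SLC2A3, KCTD5 and PPP1R16A neither change passed alone although their difference did. Over all genes the change passed for 208 higher (1.05%) and 234 lower (1.18%) in A549, and for 16 higher (0.0809%) and 5 lower (0.0253%) in H460a. With the values as deposited the A549 count was 2301 higher and 299 lower. The difference is built from the same arrays, so the counts are not independent of it.

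**Figure D1:**
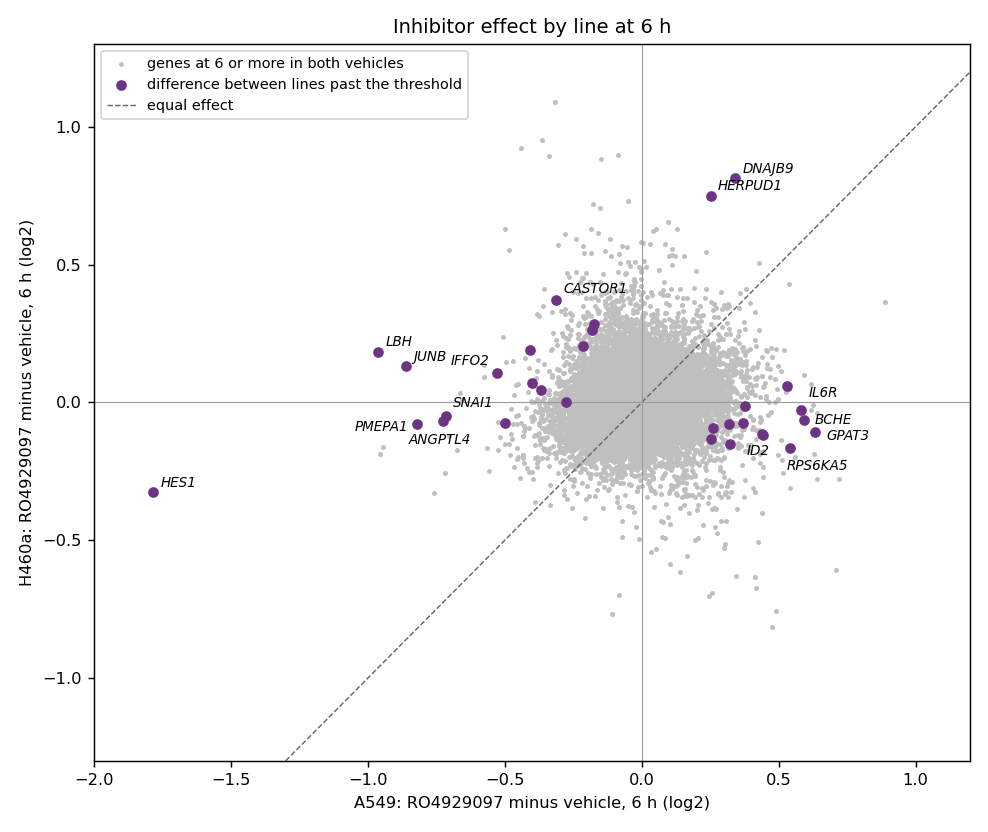
Change with RO4929097 at 6 h in A549 (horizontal axis, log2) and in H460a (vertical axis, log2) for the 14496 genes at 6 or more in both vehicles, as grey points, with the 31 genes whose difference passed in purple and a dashed line of equal change. HES1 lies at -1.78 in A549 and -0.33 in H460a, most purple points spread along the horizontal axis, and HERPUD1 and DNAJB9 lie above the dashed line with H460a changes of 0.75 and 0.81.

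The counts depended on single arrays. Without A549 RO4929097 arrays 3 and 4 the difference passed for 10 genes, 1 above and 9 below 0, of which 9 were among the 34: HES1, LBH, JUNB, PMEPA1, IFFO2, BHLHE40, HERPUD1, DNAJB9 and RGS2. Without H460a vehicle array 3 it passed for 27 genes, 21 of them among the 34, and without all 3 arrays for 12 genes, 9 of them among the 34. Leaving out A549 RO4929097 array 2 gave 75 genes, and A549 vehicle array 3 or A549 RO4929097 array 4 gave 17 each. Without H460a RO4929097 array 2 or 3 there were 18 each, without A549 RO4929097 array 3 there were 20 and without H460a RO4929097 array 4 there were 21. The count at 6 or more in both vehicles moved with it, between 15 and 69. The A549 total of 442 genes moved more widely: it was 86 without A549 RO4929097 array 3, 104 without its array 4, 106, 230 and 294 without A549 vehicle arrays 3, 4 and 2, and 20 without RO4929097 arrays 3 and 4 together. It was 681 without A549 vehicle array 1, 709 and 1011 without A549 RO4929097 arrays 1 and 2, and 849 without H460a vehicle array 3. All 34 differences between lines kept their sign under every setting tried, and 16 of them passed with any single 6 h array left out.

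Of the Notch target genes HES1 was the one that passed for the difference between lines. HES1 lay at 7.75, 8.29, 7.99 and 7.98 on the A549 RO4929097 arrays, against 9.78, 9.75, 9.79 and 9.84 on the A549 vehicle arrays. In H460a it lay at 6.45, 6.69, 6.00 and 6.32 with RO4929097, against 6.82, 6.59, 6.50 and 6.86 with vehicle. The A549 groups were far apart and the H460a groups overlapped. The change was -1.78 ± 0.12 (SE) in A549 and -0.33 ± 0.12 in H460a (adjusted p = 0.417), and the difference was -1.46 ± 0.175 (95% interval -1.82 to -1.10, adjusted p = 1.8e-05). In A549 this left a level 0.290 times that of vehicle, and in H460a 0.798 times. Its mean vehicle level was 9.79 in A549 and 6.69 in H460a, and 6.69 is the level closest above 6 among the 31 genes. The other HES1 probe sets differed by -1.07 and -0.12, the second of them at 5.96 in H460a vehicle.

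The promoters of HES1 and its relative HES4 are shown because both genes fell in A549 with RO4929097 and both windows hold GTGGGAA, the core letters that RBPJ is known to bind. They are the 250 bases before the start of the gene in RefSeq (GRCh38.p14), 5' to 3' on the gene's strand: chr3:194135898-194136147 on the plus strand for HES1 and chr1:1000098-1000347 on the minus strand for HES4. Capitals mark GTGGGAA in both and, in HES1, also the shorter TGGGAA.
HES1: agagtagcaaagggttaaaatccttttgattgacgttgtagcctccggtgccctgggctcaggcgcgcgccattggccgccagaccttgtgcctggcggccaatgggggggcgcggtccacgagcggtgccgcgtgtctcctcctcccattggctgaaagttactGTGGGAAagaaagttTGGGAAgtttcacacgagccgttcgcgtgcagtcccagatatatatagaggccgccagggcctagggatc
HES4: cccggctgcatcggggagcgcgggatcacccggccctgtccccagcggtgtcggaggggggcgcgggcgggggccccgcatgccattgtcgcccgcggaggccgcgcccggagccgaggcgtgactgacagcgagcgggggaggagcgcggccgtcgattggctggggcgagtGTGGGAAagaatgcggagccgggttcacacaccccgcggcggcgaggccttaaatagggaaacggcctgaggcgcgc
GTGGGAA lies 85 to 79 bases before the start in HES1 and 77 to 71 in HES4, and the second TGGGAA of HES1 lies 70 to 65 bases before it. Searched on both strands, GTGGGAA is held by 5.43% of the 35116 promoters in the table and TGGGAA, which is part of it, by 20.8%. Of the 34 genes 28 had a promoter in the table, and GTGGGAA was found in 2 of them, HES1 and TOB1. The TOB1 difference was above 0. TGGGAA was found in 4 of the 28.

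HES4, a repressor of the same family, was the nearest gene outside the threshold on the side below 0. It lay at 8.46, 8.45, 8.30 and 8.23 on the A549 RO4929097 arrays, against 8.88, 8.95, 9.02 and 8.90 on the A549 vehicle arrays. The H460a levels were 8.44, 8.70, 8.46 and 8.39 with RO4929097, against 8.68, 8.48, 7.87 and 8.59 with vehicle. The A549 groups did not overlap and the H460a groups did, with vehicle array 3 the lowest of the 4. Its difference was -0.67 ± 0.15 (adjusted p = 0.0505), and without H460a vehicle array 3 it was -0.49 (adjusted p = 0.0238).

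The remaining classical targets gave no difference past the threshold. HEY1, a repressor related to HES1, fell by 0.44 ± 0.07 in A549 (adjusted p = 8.45e-04); its change in H460a was -0.28 (adjusted p = 0.209) and the difference -0.17, with an interval of -0.38 to 0.04. NRARP, which limits Notch signalling by promoting turnover of the intracellular part, differed by -0.07 (-0.28 to 0.13) and HEYL by -0.15 (-0.47 to 0.18). HES2 differed by 0.002, HES5 by -0.26 and HEY2 by 0.16, the last 2 of them under 6 in both vehicles. MYC, a transcription factor of cell growth, differed by -0.03 (-0.16 to 0.11) and CCND1, a cyclin, by -0.12 (-0.31 to 0.06). Of 30 Notch target genes measured, 1 passed below 0 and none above, with a median of -0.11 against -0.02 over all genes. Of the 30 estimates 21 were below 0, against 54.4% of all genes. At an unadjusted p under 0.05 there were 9 below and 1 above 0, against 13.3% of all genes. Without A549 RO4929097 arrays 3 and 4 and H460a vehicle array 3, 2 of the 30 passed below 0 and none above. The A549 change alone passed for 8 of the 30, all lower, against 1.18% of all genes lower in A549. The H460a change passed for none (6 at an unadjusted p under 0.05, 2 higher and 4 lower, against 10.2% of all genes).

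Of 34 Notch receptors, ligands and cofactors none passed in limma for the difference (9 at an unadjusted p under 0.05, 1 above and 8 below 0, against 13.3% of all genes), and their median was 0.003. The receptor NOTCH3 differed by 0.31 ± 0.09 (adjusted p = 0.177), NOTCH1 by 0.12, NOTCH2 by 0.10 and NOTCH4 by 0.004. The ligand JAG1 differed by -0.06, and RBPJ by 0.11. JAG2, another ligand, fell by 0.33 in A549 (adjusted p = 0.0033) with a change of -0.10 in H460a, and the difference was -0.23 (-0.41 to -0.06, adjusted p = 0.266). The 5 gamma-secretase genes measured differed by -0.68 ± 0.36 (PSENEN), -0.36 (APH1A), -0.14 (NCSTN), -0.07 (APH1B) and -0.05 (PSEN2), none past the threshold and none at an unadjusted p under 0.05. PSENEN lay at 7.77 on H460a vehicle array 3, against 8.66 to 9.37 on the other 3, and without that array its difference was -0.36.

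**Figure D2:**
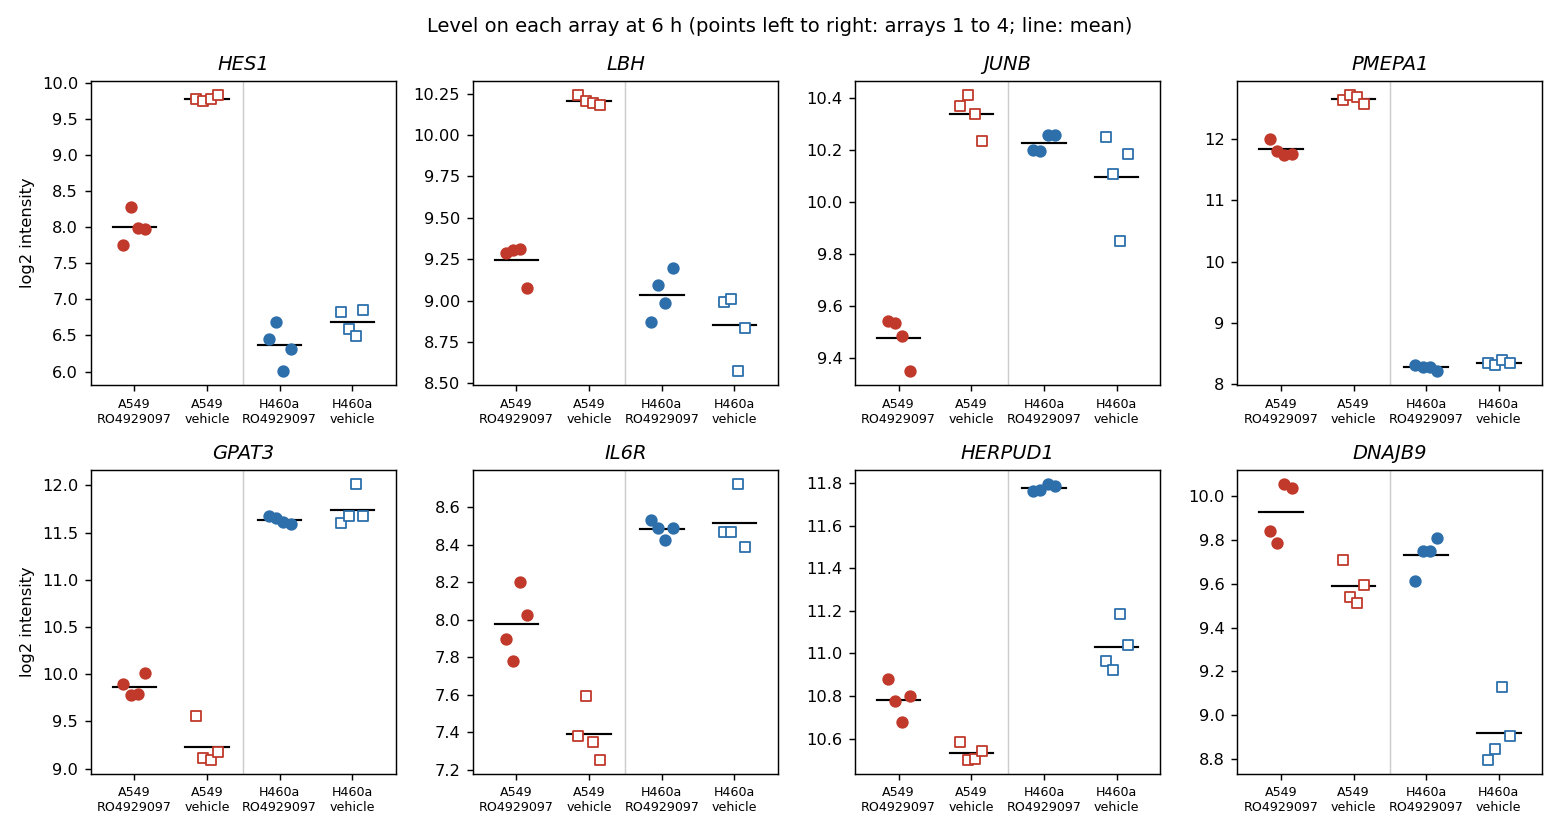
Log2 intensity of 8 genes on each 6 h array, for A549 with RO4929097, A549 with vehicle, H460a with RO4929097 and H460a with vehicle from left to right; points are arrays 1 to 4, the line is the group mean, and each panel has its own vertical range. HES1, LBH, JUNB and PMEPA1 are lower with RO4929097 than with vehicle on every A549 array, GPAT3 and IL6R are higher, and HERPUD1 and DNAJB9 are higher with RO4929097 in both lines.

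Of 26 SMAD and TGF-beta response genes measured, 4 passed below 0 (JUNB, PMEPA1, ANGPTL4 and BHLHE40) and 1 above (ID2), and 20 of the 26 estimates were below 0, against 54.4% of all genes. Their median was -0.23, against -0.02 over all genes, and was -0.25 without A549 RO4929097 arrays 3 and 4 and -0.17 without H460a vehicle array 3. Without all 3 arrays 3 of the 26 passed below 0 and none above. In A549 alone 7 were lower and 1 higher, against 1.18% and 1.05% of all genes. In H460a none passed (5 at an unadjusted p under 0.05, 4 higher and 1 lower, against 10.2% of all genes).

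JUNB, an AP-1 subunit, had the smallest p of all genes. It lay at 9.54, 9.53, 9.48 and 9.35 on the A549 RO4929097 arrays, against 10.37, 10.41, 10.34 and 10.23 on the A549 vehicle arrays. H460a arrays read 10.20, 10.20, 10.26 and 10.26 with RO4929097, against 10.25, 10.11, 9.85 and 10.18 with vehicle. JUNB fell by 0.86 ± 0.06 in A549, where the groups did not overlap, and in H460a they did. Its difference was -0.99 ± 0.09 (-1.18 to -0.81, adjusted p = 1.11e-07).

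PMEPA1, which TGF-beta induces and which restrains SMAD signalling in turn, lay at 12.01, 11.81, 11.75 and 11.77 on the A549 RO4929097 arrays, against 12.63, 12.72, 12.69 and 12.57 with vehicle. On the H460a side its levels were 8.32, 8.28, 8.29 and 8.22 with RO4929097, against 8.35, 8.32, 8.40 and 8.35 with vehicle. The A549 groups did not overlap; the H460a groups overlapped and sat far lower throughout. The difference was -0.74 ± 0.105 (adjusted p = 3.98e-04), and the other PMEPA1 probe sets gave -0.72 and -0.49.

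ANGPTL4, a secreted inhibitor of lipoprotein lipase, averaged 9.02 ± 0.06 with RO4929097 and 9.74 ± 0.13 with vehicle in A549 (SD, n = 4 each). In H460a it averaged 8.90 ± 0.06 with RO4929097 and 8.96 ± 0.10 with vehicle. The difference was -0.66 ± 0.12 (adjusted p = 0.0071), and -0.61 (adjusted p = 0.127) without A549 RO4929097 arrays 3 and 4. BHLHE40, a repressor tied to the circadian clock, averaged 11.56 ± 0.10 with RO4929097 and 11.97 ± 0.03 with vehicle in A549. In H460a it averaged 11.59 ± 0.05 with RO4929097 and 11.40 ± 0.21 with vehicle, and the difference was -0.60 ± 0.10 (adjusted p = 0.0046). The H460a vehicle mean of BHLHE40 included array 3 at 11.11, the lowest of its group, and without that array the difference was -0.50 (adjusted p = 0.0025). With the values as deposited it was -0.40 (adjusted p = 0.124).

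ID2, an inhibitor of helix-loop-helix factors that SMADs also regulate, moved the other way. It lay at 11.61, 11.54, 11.69 and 11.61 on the A549 RO4929097 arrays, against 11.27, 11.06, 11.23 and 11.13 with vehicle. In H460a it lay at 11.64, 11.58, 11.64 and 11.50 with RO4929097, against 11.73, 11.74, 11.64 and 11.70 with vehicle. ID2 rose on every A549 array relative to vehicle and overlapped in H460a, giving a difference of 0.55 ± 0.10 (adjusted p = 0.0072; 0.51 and adjusted p = 0.127 without A549 RO4929097 arrays 3 and 4). Its relatives did not pass: ID1 differed by -0.41 ± 0.20, but by -0.13 without H460a vehicle array 3, on which ID1 lay at 10.93 against 12.01 to 12.15 on the other 3. ID3 differed by -0.12 (-0.27 to 0.03). The feedback inhibitors SMAD7 and SKIL, which TGF-beta induces, differed by -0.29 (adjusted p = 0.504) and -0.43 (adjusted p = 0.327). Without A549 RO4929097 arrays 3 and 4 the SMAD7 value was -0.58.

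Of 27 AP-1 and early response genes JUNB and IER2 passed, both below 0, with a list median of -0.07. IER2, an immediate early gene, averaged 11.02 ± 0.09 with RO4929097 and 11.39 ± 0.06 with vehicle in A549, and 10.90 ± 0.05 with RO4929097 and 10.85 ± 0.04 with vehicle in H460a. Its difference was -0.41 ± 0.07 (adjusted p = 0.0071; -0.35 and adjusted p = 0.153 without A549 RO4929097 arrays 3 and 4), and with the values as deposited it was -0.25 (adjusted p = 0.137).

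LBH, a transcriptional cofactor known from limb and heart development, fell in A549. It lay at 9.29, 9.30, 9.31 and 9.08 on the A549 RO4929097 arrays, against 10.24, 10.21, 10.19 and 10.18 with vehicle. The H460a levels were 8.87, 9.09, 8.99 and 9.19 with RO4929097, against 8.99, 9.01, 8.57 and 8.83 with vehicle. LBH fell by 0.96 ± 0.10 in A549 with no overlap, whereas its H460a change of 0.18 did not pass (adjusted p = 0.516) and the groups overlapped. H460a vehicle array 3 was the lowest of its group, and without it the H460a change was 0.09. The difference was -1.14 ± 0.13 (adjusted p = 1.72e-05), and -1.05 without that array.

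SNAI1, the Snail repressor of E-cadherin, lay at 7.66, 7.79, 7.57 and 7.74 on the A549 RO4929097 arrays, against 8.55, 8.38, 8.32 and 8.37 with vehicle. In H460a it lay between 7.75 and 7.85 with RO4929097 and between 7.76 and 7.99 with vehicle. The A549 groups were separate and the H460a groups overlapped, for a difference of -0.66 ± 0.12 (adjusted p = 0.0071), and -0.63 (adjusted p = 0.0994) without A549 RO4929097 arrays 3 and 4. SNAI2, its relative Slug, fell by 0.66 in A549 (adjusted p = 0.0073), with array 3 at 6.61 and the other RO4929097 arrays at 5.65 to 6.07. Its difference of -0.70 ± 0.19 did not pass (adjusted p = 0.133) and was -0.87 (adjusted p = 0.038) without A549 RO4929097 arrays 3 and 4.

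CDH1, the gene of E-cadherin, is the only one of the 34 whose H460a change passed and whose A549 change did not. It lay at 9.93, 9.97, 10.08 and 9.92 on the A549 RO4929097 arrays, against 9.73, 9.87, 9.88 and 9.92 with vehicle. H460a arrays read 4.48, 4.08, 4.13 and 4.29 with RO4929097, against 4.98, 4.69, 4.82 and 4.63 with vehicle. The H460a groups did not overlap, but both lay among the dimmest signals: the 10th percentile of the deposited log2 values lay between 4.20 and 4.31 on the 16 arrays. The difference was 0.66 ± 0.12 (adjusted p = 0.0102). The other CDH1 probe set, at 5.19 in H460a vehicle, changed by -0.06 in H460a and differed by 0.16. With the mean of the CDH1 probe sets the difference was 0.41 and did not pass in limma (adjusted p = 0.135). No other epithelial marker passed: of 15 simple epithelial markers CDH1 alone did, and the list median was -0.10.

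HERPUD1 and DNAJB9, of the unfolded protein response, rose in both lines and more in H460a. HERPUD1, an endoplasmic reticulum membrane protein of the degradation pathway, lay at 10.88, 10.78, 10.68 and 10.80 on the A549 RO4929097 arrays, against 10.59, 10.50, 10.50 and 10.54 with vehicle. On the H460a side its levels were 11.77, 11.77, 11.80 and 11.79 with RO4929097, against 10.97, 10.92, 11.19 and 11.04 with vehicle. Neither line's groups overlapped. HERPUD1 rose by 0.25 ± 0.05 in A549 (adjusted p = 0.0108) and by 0.75 ± 0.05 in H460a (adjusted p = 1.78e-10), a difference of -0.50 ± 0.08 (adjusted p = 9.25e-04). Its dimmer probe set, at 6.34 in A549 vehicle and 6.47 in H460a vehicle, differed by -0.12, with changes of -0.14 in A549 and -0.02 in H460a. With the values as deposited the HERPUD1 difference was -0.37 (adjusted p = 0.0804), and with each array centred -0.38 (adjusted p = 0.171).

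DNAJB9, a co-chaperone of the endoplasmic reticulum, lay at 9.84, 9.79, 10.06 and 10.04 on the A549 RO4929097 arrays, against 9.71, 9.54, 9.51 and 9.59 with vehicle. In H460a it lay at 9.61, 9.75, 9.75 and 9.81 with RO4929097, against 8.79, 8.85, 9.13 and 8.90 with vehicle. It was higher with RO4929097 on every array of both lines. DNAJB9 rose by 0.34 ± 0.07 in A549 and by 0.81 ± 0.07 in H460a, and the difference was -0.47 ± 0.10 (adjusted p = 0.0278). Its other probe sets rose by 0.37 and 0.67 in A549 and by 0.72 and 1.23 in H460a, with no threshold applied to them. With the values as deposited the DNAJB9 difference was -0.39 (adjusted p = 0.145), and with each array centred -0.39 (adjusted p = 0.247). With the mean of its probe sets it was -0.46 (adjusted p = 0.131).

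Of 20 unfolded protein response genes measured, HERPUD1 and DNAJB9 were the 2 that passed, 16 of the 20 estimates were below 0, against 54.4% of all genes, and the median was -0.16, against -0.02. At an unadjusted p under 0.05 the difference was below 0 for 9 of the 20 and above for none, against 13.3% of all genes. In A549 2 were higher and none lower, against 1.05% and 1.18% of all genes. In H460a 11 were higher and none lower unadjusted, against 5.3% and 4.85% of all genes. Past the threshold in H460a 4 of the 20 were higher and none lower, against 0.0809% and 0.0253%. The other H460a members, named after their values were seen, were SDF2L1, a partner of endoplasmic reticulum chaperones, which rose by 0.51 ± 0.09, and DNAJC3, a co-chaperone, which rose by 0.38 ± 0.06. That rise was seen on the DNAJC3 probe set used, whose difference was -0.21. The other DNAJC3 probe sets changed by -0.04, 0.03 and 0.04 in H460a, and their differences were 0.66, 0.14 and 0.33. SDF2L1 lay at 9.79, 9.77, 9.61 and 9.51 on the A549 RO4929097 arrays, against 9.62, 9.72, 9.70 and 9.73 with vehicle. The H460a levels were 11.16, 11.29, 11.13 and 11.22 with RO4929097, against 10.90, 10.80, 10.23 and 10.83 with vehicle. H460a vehicle array 3 was the low one; the difference was -0.54 ± 0.13 with it (adjusted p = 0.0933) and -0.38 without it (adjusted p = 0.0581).

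The promoters of HERPUD1 and SDF2L1 are shown because both rose in H460a and both windows hold the motif known as ERSE-II, which the stress factors ATF6 and XBP1 are known to bind. They are again the 250 bases before the start in RefSeq (GRCh38.p14), 5' to 3' on the gene's strand: chr16:56931892-56932141, plus strand, for HERPUD1 and chr22:21642052-21642301, plus strand, for SDF2L1. Capitals mark the motif, which in SDF2L1 is on the opposite strand and so appears as its reverse complement.
HERPUD1: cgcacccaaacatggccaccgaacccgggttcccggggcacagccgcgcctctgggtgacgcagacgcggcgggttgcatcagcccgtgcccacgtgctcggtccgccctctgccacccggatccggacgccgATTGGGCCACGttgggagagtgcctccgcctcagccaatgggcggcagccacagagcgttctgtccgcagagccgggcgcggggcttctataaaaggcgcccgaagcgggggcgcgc
SDF2L1: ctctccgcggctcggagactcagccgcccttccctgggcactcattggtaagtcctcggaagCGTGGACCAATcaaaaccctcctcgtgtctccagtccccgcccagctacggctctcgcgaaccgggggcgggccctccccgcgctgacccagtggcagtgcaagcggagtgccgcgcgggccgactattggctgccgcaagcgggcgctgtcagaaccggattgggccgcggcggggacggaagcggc
The motif lies 117 to 107 bases before the start in HERPUD1 and 188 to 178 in SDF2L1. On both strands, 18 of the 35116 promoters in the table hold it (0.051%). Among them are 2 of the 14 H460a genes that were higher and had a promoter in the table, and no other of the 28 promoters of the 34 genes. These 2 are the genes shown, picked for holding it, so the count is no test. A further motif searched, ERSE, was in 26 of the 35116 promoters (0.074%), in 0 of the 14 and in 0 of the 28. The TATA box TATAAA was also searched, and was in 3763 of the 35116 (10.7%), in 2 of the 14 and in 7 of the 28. These counts were not tested.

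**Figure D3:**
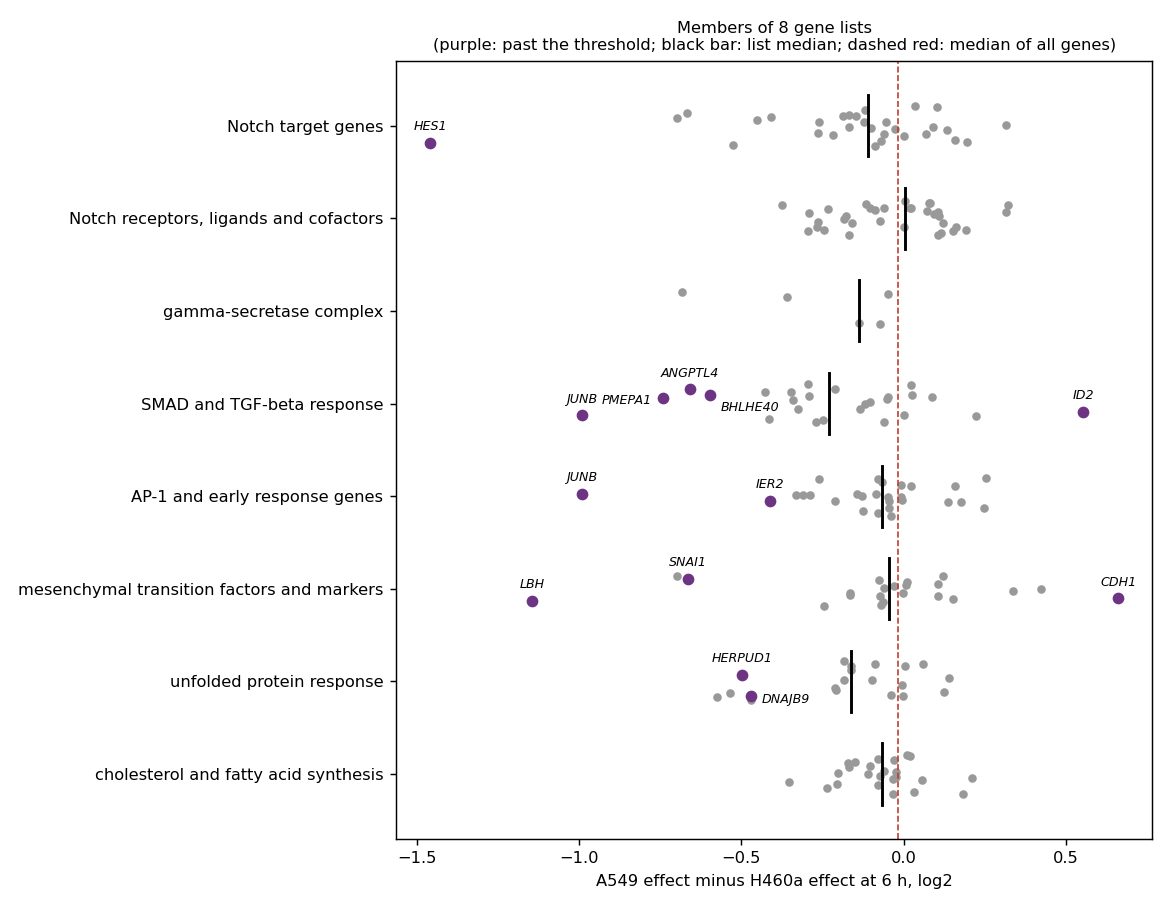
Difference between lines at 6 h (A549 change minus H460a change, log2) for the measured members of 8 gene lists, 1 point a gene, with the list median as a black bar and the median of all genes as a dashed line at -0.02. The SMAD and TGF-beta list has 4 genes past the threshold below 0 and ID2 above, the unfolded protein response list has HERPUD1 and DNAJB9 below 0, and the Notch target list has HES1 only.

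Besides HERPUD1 and DNAJB9, 6 genes passed in the same direction in both lines, and their differences did not pass. INSIG1, a sterol-regulated brake on cholesterol synthesis, rose by 0.32 ± 0.06 in A549 and by 0.35 ± 0.06 in H460a, and its difference was -0.03 (-0.20 to 0.14). HSPA13, a chaperone of the heat shock family, rose by 0.29 in A549 and 0.40 in H460a, and SLC33A1, the acetyl-CoA transporter of the endoplasmic reticulum, by 0.23 in A549 and 0.38 in H460a. MIS12, a kinetochore protein, rose by 0.25 in A549 and 0.28 in H460a, and VASN, a membrane protein known to bind TGF-beta, by 0.27 in A549 and 0.34 in H460a. PSAPL1 fell by 0.39 in A549 and by 0.36 in H460a. For these 6 genes the difference lay between -0.15 and -0.03 on the probe set used, and its interval stayed within -0.33 to 0.15. The other probe sets of INSIG1, HSPA13 and SLC33A1 differed by -0.20 to 0.21. The highest was that of HSPA13, which rose by 0.33 in A549 and 0.12 in H460a.

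Of the 208 genes higher in A549, 125 (60.1%) were also above 0 in H460a and 7 passed there, and their median H460a change was 0.02. Of the 234 lower in A549, 164 (70.1%) were below 0 in H460a and 1 passed, with a median of -0.05. Over all genes 52.6% had the same sign in both lines. Across the 14496 genes at 6 or more in both vehicles the Pearson correlation of the 2 changes was 0.046, as a description over genes, which are not independent replicates. Of the 16 genes higher in H460a, 15 were above 0 in A549 and 7 passed there.

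**Figure D4:**
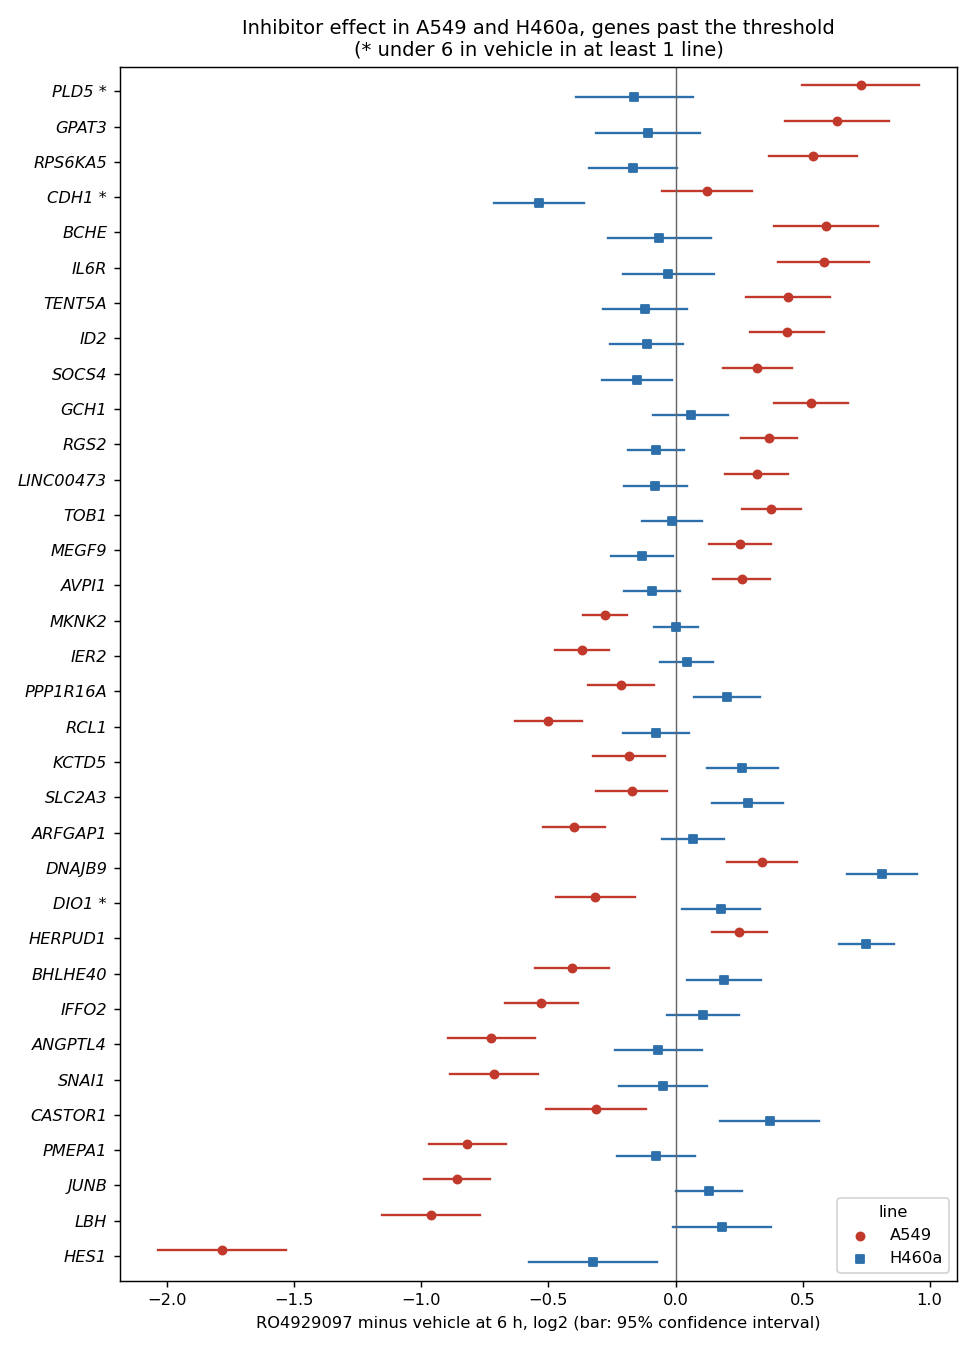
Change with RO4929097 at 6 h (log2, bar: 95% interval) in A549 (red circles) and H460a (blue squares) for the 34 genes whose difference passed, ordered by the difference from PLD5 at 0.89 down to HES1 at -1.46. Most H460a points lie near 0 while the A549 points lie to either side; HERPUD1 and DNAJB9 have H460a points further right than their A549 points, and CDH1 moves in H460a.

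The other 9 genes below 0 had varied roles. IFFO2, an intermediate filament family gene, averaged 8.86 ± 0.07 with RO4929097 and 9.39 ± 0.06 with vehicle in A549, and 7.82 ± 0.19 with RO4929097 and 7.71 ± 0.11 with vehicle in H460a. Its difference was -0.64 ± 0.10 (adjusted p = 0.0014), and it passed without A549 RO4929097 arrays 3 and 4 as well (-0.57, adjusted p = 0.038). ARFGAP1, a regulator of the Golgi GTPase ARF1, differed by -0.47 and RCL1, a ribosomal RNA processing factor, by -0.42. Both fell in A549, by 0.40 and 0.50. Neither difference passed without A549 RO4929097 arrays 3 and 4, and that of RCL1 did not pass without H460a vehicle array 3. MKNK2, a kinase of a translation initiation factor, named after its value was seen, differed by -0.28 ± 0.06 (adjusted p = 0.0405), the smallest size among the 34. Its value moved with the processing: it was -0.08 (adjusted p = 0.718) with the values as deposited, -0.09 (adjusted p = 0.742) with each array centred and -0.53 (adjusted p = 0.00293) with the mean of its probe sets. DIO1, the type I deiodinase that activates thyroid hormone, differed by -0.50, but its levels lay between 3.999 and 4.77 on all 16 arrays.

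Of these 9 genes 4 passed only as a difference. CASTOR1, an arginine sensor of the mTORC1 pathway, averaged 8.27 ± 0.11 with RO4929097 and 8.58 ± 0.03 with vehicle in A549, a change of -0.31 (adjusted p = 0.0748). In H460a it averaged 7.79 ± 0.08 with RO4929097 and 7.42 ± 0.34 with vehicle, a change of 0.37 (adjusted p = 0.182), with vehicle array 3 at 6.94 and the other 3 at 7.41 to 7.67. The difference was -0.68 ± 0.14 (adjusted p = 0.0238), -0.52 without H460a vehicle array 3 (adjusted p = 0.0077) and -0.60 without A549 RO4929097 arrays 3 and 4 (adjusted p = 0.323). The glucose transporter SLC2A3 differed by -0.46 and KCTD5, a cullin ligase adaptor, by -0.45. H460a vehicle array 3 was the lowest of its group for both, and without it their differences were -0.38 (adjusted p = 0.0646) and -0.34 (adjusted p = 0.0514). PPP1R16A, a phosphatase regulatory subunit named after its value was seen, differed by -0.42, and by -0.39 (adjusted p = 0.0844) without that array.

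Of the 15 genes above 0, all but CDH1 had a rise in A549 that passed the threshold. The CDH1 change in A549 was 0.12 and did not pass. GPAT3, an acyltransferase of triglyceride synthesis, lay at 9.89, 9.78, 9.79 and 10.01 on the A549 RO4929097 arrays, against 9.55, 9.11, 9.09 and 9.18 with vehicle. H460a arrays read 11.68, 11.66, 11.61 and 11.59 with RO4929097, against 11.60, 11.67, 12.02 and 11.68 with vehicle. The A549 groups were separate and the H460a groups overlapped, with vehicle array 3 the highest of the 16 arrays. The difference was 0.74 ± 0.14 (adjusted p = 0.0135), 0.65 without that array (adjusted p = 0.0339) and 0.71 without A549 RO4929097 arrays 3 and 4 (adjusted p = 0.142).

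IL6R, the interleukin-6 receptor, lay at 7.90, 7.78, 8.20 and 8.03 on the A549 RO4929097 arrays, against 7.38, 7.59, 7.35 and 7.25 with vehicle. In H460a it lay between 8.43 and 8.53 with RO4929097 and between 8.39 and 8.73 with vehicle. The A549 groups did not overlap, and the H460a groups did. The difference was 0.61 ± 0.12 (adjusted p = 0.0264), 0.54 without H460a vehicle array 3 (adjusted p = 0.0646) and 0.47 without A549 RO4929097 arrays 3 and 4 (adjusted p = 0.403). Its other probe sets differed by 0.60 and 0.05. The cytokine IL6 differed by -0.27 (adjusted p = 0.418), the chemokine CXCL8 by 0.14 and CCL2, under 6 in H460a vehicle, by -0.14; of 27 inflammatory genes IL6R alone passed. SOCS4, a member of the suppressor of cytokine signalling family, differed by 0.47 ± 0.10 (adjusted p = 0.0264). Its difference passed neither without A549 RO4929097 arrays 3 and 4 nor without H460a vehicle array 3.

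RGS2, a brake on G protein signalling, was the gene above 0 that passed with or without the arrays that stood apart. It lay at 10.15, 10.13, 10.10 and 10.23 on the A549 RO4929097 arrays, against 9.79, 9.86, 9.71 and 9.78 with vehicle. In H460a, where it was far more abundant, it lay at 14.16, 14.23, 14.22 and 14.25 with RO4929097, against 14.24, 14.27, 14.44 and 14.21 with vehicle. The A549 groups were separate and the H460a groups overlapped, with a difference of 0.45 ± 0.08 (adjusted p = 0.0046), and 0.43 (adjusted p = 0.038) without A549 RO4929097 arrays 3 and 4. With only the 6 h arrays in the limma fit the RGS2 difference did not pass (adjusted p = 0.0745).

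RPS6KA5, a nuclear kinase downstream of the MAP kinases, averaged 8.27 ± 0.12 with RO4929097 and 7.72 ± 0.12 with vehicle in A549, and 7.97 ± 0.06 with RO4929097 and 8.13 ± 0.14 with vehicle in H460a. Its difference was 0.71 ± 0.12 (adjusted p = 0.0046; 0.65 and adjusted p = 0.0586 without A549 RO4929097 arrays 3 and 4). BCHE, butyrylcholinesterase, differed by 0.66 ± 0.14 and TENT5A, a poly(A) polymerase, by 0.56 ± 0.11. GCH1, which starts tetrahydrobiopterin synthesis, differed by 0.47, the noncoding RNA LINC00473 by 0.40, TOB1, an antiproliferative protein, by 0.39, MEGF9 by 0.39 and AVPI1 by 0.35. None of the 7 genes from BCHE to AVPI1 passed without A549 RO4929097 arrays 3 and 4, although each kept its sign. PLD5, of the phospholipase D family, had the largest difference above 0 at 0.89 ± 0.16 (adjusted p = 0.0071), with H460a levels of 3.98 to 4.31 on all 8 arrays. In A549 it averaged 7.97 ± 0.26 with RO4929097 and 7.24 ± 0.21 with vehicle. The PLD5 difference did not pass without A549 RO4929097 arrays 3 and 4.

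At the threshold adjusted p-values lay close together. The 3 weakest that passed were KCTD5, AVPI1 and MEGF9 (adjusted p = 0.0474 each). The nearest beyond it were CEACAM6, named for that reason after its value was seen (0.55, adjusted p = 0.0502; 0.49 and adjusted p = 0.127 without H460a vehicle array 3), and HES4.

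Vehicle levels of the 34 genes are given as a description. On the 24 h vehicle arrays, which the 6 h difference did not use, 11 of the 15 genes above 0 were lower in A549 than in H460a, with a median of -0.74. Of the 19 genes below 0, 10 were higher in A549, with a median of 0.23. Over all genes 9482 of 19775 were higher in A549, with a median of -0.01. RGS2 had a 6 h vehicle level of 9.79 in A549 and 14.29 in H460a, TENT5A of 8.89 in A549 and 13.31 in H460a, and PMEPA1 of 12.65 in A549 and 8.35 in H460a.

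In other gene lists few members passed for the difference. For the unadjusted counts below, the share over all genes at an unadjusted p under 0.05 was 13.3%. None of 40 G2 and mitosis genes passed in limma, and at an unadjusted p under 0.05 there were 10 above and 1 below 0, with a median of 0.12. None of 30 interferon response genes passed (1 above and 6 below 0 unadjusted), none of 35 S phase genes (2 above and 2 below), none of 24 cholesterol and fatty acid synthesis genes (1 above and 2 below), none of 22 p53 targets (1 above and 2 below) and none of 22 ribosomal protein genes (0 unadjusted). Of 33 hypoxia and glycolysis genes SLC2A3 alone passed, and of 22 lipid droplet and triglyceride genes GPAT3 alone. Of 14 alveolar type II markers, the cell type that A549 is often used to model, none passed (1 above and 1 below 0 unadjusted). Of the 14, 10 were at 6 or more in A549 vehicle and 11 in H460a vehicle, against 15051 and 14807 of all 19775 genes. Of 28 fibroblast, leukocyte and endothelial markers none passed, adjusted or not.

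At 24 h the same contrast, taken from the 16 other arrays, passed for 157 genes (0.794%), 74 above and 83 below 0; without A549 RO4929097 array 2 at 24 h it passed for 100, without array 4 for 102 and without A549 vehicle array 2 for 104. Of the 34 genes of 6 h, 27 kept their sign at 24 h, against 51.3% of all genes, and 9 passed in the same direction. HES1 (-1.83), PMEPA1 (-1.71), JUNB (-0.91), LBH (-0.67), IFFO2 (-0.46) and MKNK2 (-0.41) passed again below 0, and IL6R (0.57), MEGF9 (0.50) and AVPI1 (0.41) above.

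Of the 34 genes 6 changed their difference between 6 and 24 h, by a test of that change over the 32 arrays. Over all genes 15 of 19775 did. The 34 were picked by their 6 h difference, which is part of the value tested, so the 6 are given as a description. ID2 turned over: its difference was 0.55 at 6 h and -0.53 at 24 h (adjusted p = 0.005), a change of 1.08 ± 0.14 (adjusted p = 1.38e-04). For PMEPA1 it was larger at 24 h, with -0.74 at 6 h and -1.71 at 24 h (6 h minus 24 h 0.97, adjusted p = 8.29e-04). HERPUD1 and DNAJB9 had differences of 0.14 and 0.24 at 24 h, with H460a changes of 0.04 and 0.06; the 6 h minus 24 h values were -0.64 (adjusted p = 0.0027) and -0.71 (adjusted p = 0.0229). None of the 16 genes higher in H460a at 6 h passed in H460a at 24 h in limma (4 higher and 1 lower at an unadjusted p under 0.05, against 6.71% of all genes). PLD5 (1.11) and DIO1 (-0.75) also changed, both dim in at least 1 line. SNAI1 differed by -0.21 at 24 h, but its change over time did not pass (-0.45 ± 0.17, adjusted p = 0.406).

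**Figure D5:**
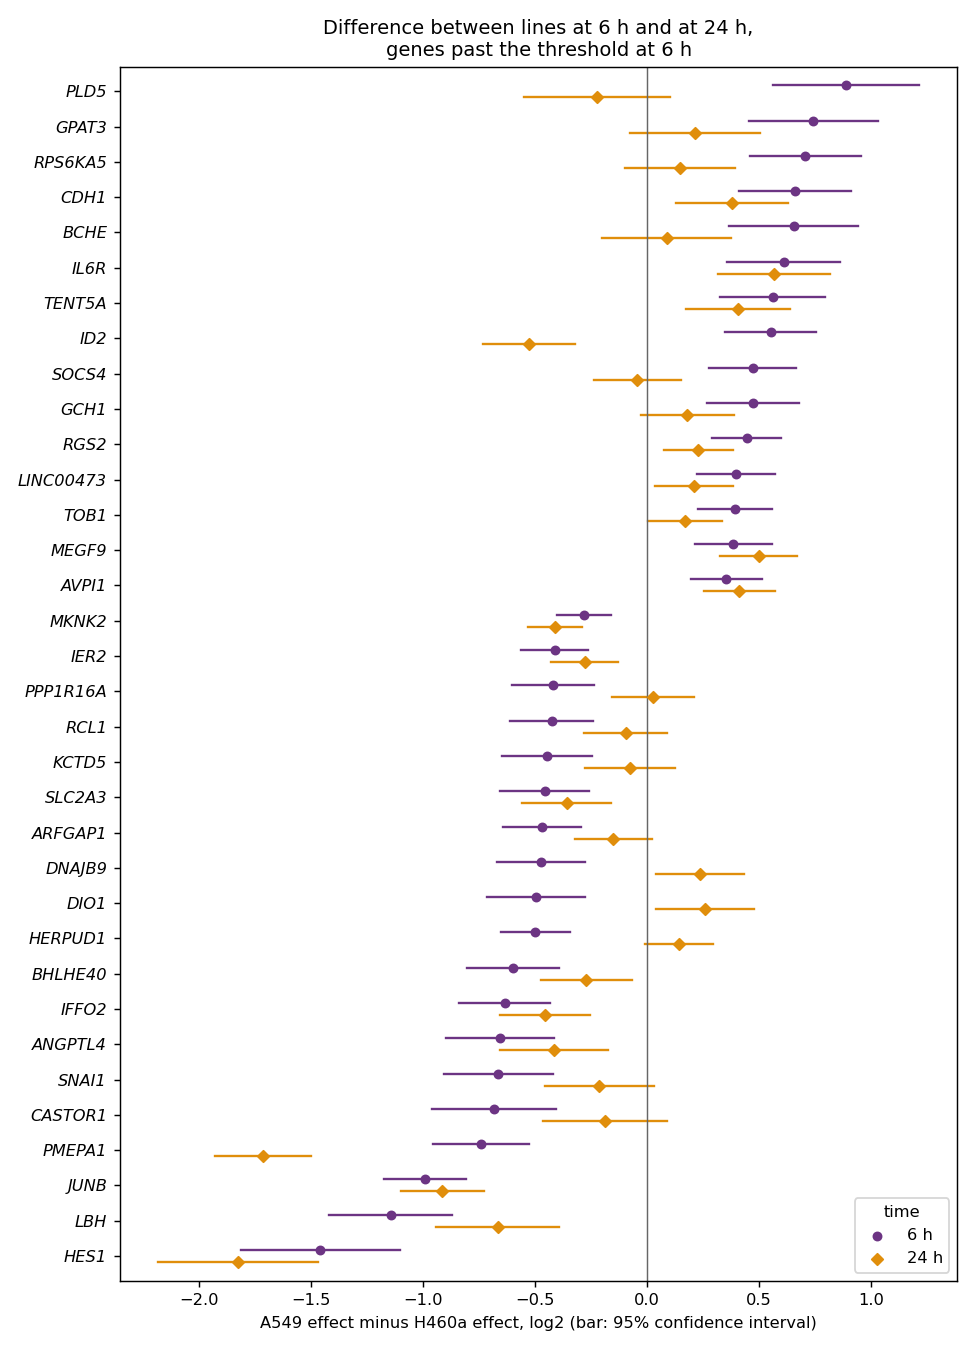
Difference between lines (A549 change minus H460a change, log2, bar: 95% interval) at 6 h (purple circles) and at 24 h (orange diamonds) for the 34 genes that passed at 6 h. HES1 and JUNB lie below 0 at both times, PMEPA1 lies further below 0 at 24 h, ID2 is above 0 at 6 h and below 0 at 24 h, and HERPUD1 and DNAJB9 lie above 0 at 24 h.

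Of the 34 genes 21 have further probe sets. In 19 of these all probe sets lay on the same side of 0, and 28 of the 30 further probe sets had the sign of the one used. With the mean of each gene's probe sets in place of the brightest, 22 of the 34 genes passed; the HES1 difference was then -0.88 (adjusted p = 5.21e-05), while HERPUD1 at -0.31 (adjusted p = 0.0915), RPS6KA5 at 0.31 (adjusted p = 0.187) and PLD5 at 0.45 (adjusted p = 0.114) were among those that did not pass. Groups of arrays that did not overlap between RO4929097 and vehicle were found for 8.72% of all genes in A549 and 5.35% in H460a.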

How the data were processed

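RNA of A549 and H460a cells was measured on 32 Affymetrix arrays, of which 16 are of 6 h. Each array has 54675 probe sets, and the authors deposited 1 intensity for each. Per the submitters' processing notes these come from RMA, whose version is not given in the sources used here. Their range is that of a linear scale, so log2 was taken and quantile normalization was run within each line. The sample descriptions mention embryos, which no other label does, and that mention was left aside. The 62 control probe sets, 1801 with several genes and 11721 with no gene named here were left out; the other 41091 stand for 19775 genes, each by its probe set with the highest mean. The RefSeq table held 41037 of the 41091 by gene ID and led to 0 changes of symbol.

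Means of the 8 groups of 4 arrays were fitted with limma 3.58.1 (lmFit, eBayes) in R 4.3.3 over all 32 arrays, with 29.8 degrees of freedom in all. Adjusted p-values are Benjamini-Hochberg over all genes within a comparison, two-sided, with a threshold of 0.05; ± is the SE of a change or difference and the SD of a group level (n = 4). Precision is limited by having 4 arrays a group. The steps were tested on simulated data.

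The members, the 34 gene lists (803 genes, 741 measured) and the rules were chosen with earlier results of these data known. Named are the 15 largest differences in each direction at 6 or more in both vehicles, up to 6 a side of the others past the threshold, 40 genes listed by name (39 measured), up to 4 members past the threshold from each list, and up to 8 genes past it in both lines. The test of the difference at 6 h against that at 24 h was added later. Alternatives were other scalings, probe set rules, arrays in the fit, variance models, array weights, a replicate block, a minimum size and left-out arrays. Promoters are from RefSeq; no genome was used. Figures were drawn with matplotlib 3.10.9.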

Additional observations from a re-analysis of the deposited data

Results flagged for a closer look

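A few arrays lay apart from the other 3 of their group, by a gap that chance gives in about 1 in 20 groups; 12 of the 144 groups examined had one. H460a vehicle array 3 had the highest 3' minus 5' actin value, 2.19 on the log2 scale, and the lowest levels of KCTD5 (9.83) and SLC2A3 (10.46) and the highest of MEGF9 (9.48) in its group. A549 vehicle array 1 had an actin value of 0.21, against 0.14 to 0.15 on the other 3. Among A549 RO4929097 arrays, array 4 was the lowest for LBH (9.08) and the highest for RPS6KA5 (8.44), and array 2 the lowest for SLC2A3 (10.32) and TENT5A (9.16). Among H460a RO4929097 arrays, array 4 was the lowest for ARFGAP1 (9.37), array 1 for GCH1 (9.57) and array 3 for IER2 (10.82).

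The inhibitor effect differed between the lines, by the limma test of the difference itself, for 34 genes. Below 0, from the largest size, were HES1 (-1.46), LBH (-1.14), JUNB (-0.99), PMEPA1 (-0.74), CASTOR1 (-0.68), SNAI1 (-0.66), ANGPTL4 (-0.66), IFFO2 (-0.64), BHLHE40 (-0.60), HERPUD1 (-0.50), DIO1 (-0.50), DNAJB9 (-0.47), ARFGAP1 (-0.47), SLC2A3 (-0.46), KCTD5 (-0.45), RCL1 (-0.42), PPP1R16A (-0.42), IER2 (-0.41) and MKNK2 (-0.28). Above 0 were PLD5 (0.89), GPAT3 (0.74), RPS6KA5 (0.71), CDH1 (0.66), BCHE (0.66), IL6R (0.61), TENT5A (0.56), ID2 (0.55), SOCS4 (0.47), GCH1 (0.47), RGS2 (0.45), LINC00473 (0.40), TOB1 (0.39), MEGF9 (0.39) and AVPI1 (0.35). The difference itself changed between 6 and 24 h for DIO1 (-0.75), DNAJB9 (-0.71), HERPUD1 (-0.64), ID2 (1.08), PLD5 (1.11) and PMEPA1 (0.97), as 6 h minus 24 h. These genes were picked by their 6 h difference, which is part of that value.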

How the results depend on the processing

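All 34 differences kept their sign under every setting, and HES1, JUNB, LBH and PMEPA1 passed under each of them and with any single array left out. The number that passed moved more. Against 34 genes, 8 passed with only the 6 h arrays fitted, 20 with each array centred on its median, 15 with a size of at least 0.58 required, 10 without A549 RO4929097 arrays 3 and 4, 12 without H460a vehicle array 3 as well, and 17 to 75 with 1 array left out. Against 31 at 6 or more in both vehicles, the same settings gave 8, 16, 13, 10, 11 and 15 to 69, and the values as deposited gave 20. Against 442 in A549, they gave 156, 2517, 28, 20, 33 and 86 to 1011, with 2600 as deposited and 849 without H460a vehicle array 3. Against 21 in H460a there were 12 with only the 6 h arrays, 3 with that line fitted alone, 58 with array weights, 2 with the size required and 15 to 22 with 1 array left out. Against 157 at 24 h there were 94 when centred, 384 with array weights, 60 with the size required and 100 to 186 with 1 array left out. Of the calls above 0, the share was 44.1%, and 70.8% as deposited and 65.0% when centred. The cause was not tested; fits on fewer arrays have fewer degrees of freedom.

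The labels give the groups the same replicate numbers. Whether equal numbers mean paired arrays is not stated, and correlations within groups of 4 arrays cannot settle it. Of 8 same-number pairs at 6 h, 2 had correlated deviations over 0.1 (r from -0.294 to 0.154). At 6 h, 2 of 8 RO4929097 arrays correlated best with their own number. For same-number pairs at 24 h r lay between -0.0905 and 0.271. With a replicate block 18 genes passed for the difference, 16 of them at 6 or more in both vehicles, 226 passed in A549, 10 in H460a and 104 for the difference at 24 h.

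For single genes, other settings kept the side of the threshold in 767 results, lost it in 184 and gained it in 8; leaving out 1 array kept it in 913, lost it in 185 and gained it in 6.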
